A study of Mus musculus with 8 samples.

Results

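Serpins are a family of proteins with a shared fold, most of which stop a protease by offering it a loop as bait and trapping it once the loop is cut. The liver secretes many of them into plasma, where they hold coagulation, fibrinolysis, the contact system, complement and leukocyte proteases in check, and a few have lost the inhibitory function and carry hormones or act as signals. They fold in the endoplasmic reticulum (ER) of the hepatocyte, as does alpha-1 antitrypsin, the best known member of the family. A set of 10 of these genes, other than the Serpina1 paralogs, was followed here, chosen by name: Serpina3k, Serpina3m, Serpina3n, Serpina6, Serpina10, Serpinc1, Serpind1, Serpinf1, Serpinf2 and Serping1. They are 10 of the 52551 rows of the count files.

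The libraries came from livers of 6-week-old male C57BL/6 mice. All of the mice carried the PiZ transgene, which makes human alpha-1 antitrypsin (SERPINA1) with the Z mutation, a form that misfolds in the ER. The second group, PiZ/Chop-/-, also lacked Chop (Ddit3), which encodes CHOP, a transcription factor made under ER stress. Each group had 4 libraries, so the comparison shows what the deletion of Chop goes with in livers that all carry the transgene. The RNA of the transgene was lower in PiZ/Chop-/- (values below), and its part in the serpin levels was not tested. The sources used here do not give the promoter of the transgene, the deleted part of Chop or whether a mouse gave 1 library or more; p-values therefore rest on the spread among the libraries, which may be technical. A wild-type group was not analysed here. Libraries were read at the 3' ends of messenger RNAs, so counts per gene were not divided by length.

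Depth ran from 1650260 to 3064385 counts per library. The filter on low counts left 8669 genes. Levels are in CPM, counts scaled by TMM library size, and values per library are listed in the order of library numbers 1 to 4. A log2 fold change above 0 means a higher level in PiZ/Chop-/- livers, and its SE is that of the edgeR quasi-likelihood fit. Ddit3 followed the labels, with 85.4 to 191 CPM in the PiZ libraries and 1.72 to 4.19 CPM in the PiZ/Chop-/- libraries. All 10 serpins were well covered, with 314 to 31065 counts in each library, and all 10 passed the filter on low counts. Markers of hepatocytes summed to between 24776 and 35221 CPM in every library, and markers of bile duct cells to between 34.9 and 67.5 CPM. The mean correlation of a library with its group, across genes, ran from 0.914 (PiZ library 4) to 0.951.

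None of the 10 secreted serpins passed the edgeR test of the Chop deletion, with an adjusted p below 0.05 (Benjamini-Hochberg) as the threshold. Over all tested genes 1.03% passed, 0.692% lower and 0.335% higher in PiZ/Chop-/-, so the count of 0 of 10 is near the background. At an unadjusted p below 0.05 there were 3 of the 10, Serpinf1, Serping1 and Serpina3n, against 13.1% of all tested genes (6.29% higher and 6.85% lower). DESeq2 and limma-voom also called none of the 10, with 4 and 3 at an unadjusted p below 0.05. Of all genes with a p in those fits, 6.74% and 13.2% were below it. The DESeq2 fit took 19847 genes with no filter on low counts, and limma-voom took the 8669 filtered genes. The DESeq2 share is therefore not a like background for these well-covered serpins. The count of 3 dropped to 1 without PiZ library 3, PiZ/Chop-/- library 2 or PiZ/Chop-/- library 3, was 2 without any other single library but PiZ library 4, and was 5 without that one. Over the other scalings, filters and fits, the block included, it ran from 2 to 4. Fold changes lay between -0.48 for Serpina3n and 0.62 for Serpinf1. In all, 8 were above 0 and 2 below 0, against 49.8% and 50.2% over all tested genes, and their median was 0.15 against -0.0016 over all tested genes (0.24 without PiZ library 4). Libraries of both groups lay fully apart in 1 of the 10, Serping1 (higher), against 7.88% of all tested genes (3.66% higher and 4.22% lower). In 9 of the 10 the 95% interval of the log2 fold change, which is not adjusted for the number of genes, lay between -1 and 1. In the fit on all 8 libraries a change of at least 2-fold was thus outside all intervals but that of Serpinf1 (upper bound 1.09). Serpina3k (upper bound 0.95) and Serpina3n (lower bound -0.94) lay near the limits. The estimate of Serpina3k was 0.60 (SE 0.24) without PiZ library 2, and that of Serpina3n was -0.60 (SE 0.24) without PiZ/Chop-/- library 4. Intervals were not drawn for fits with a library left out, so the statement does not extend to them.

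**Figure D1:**
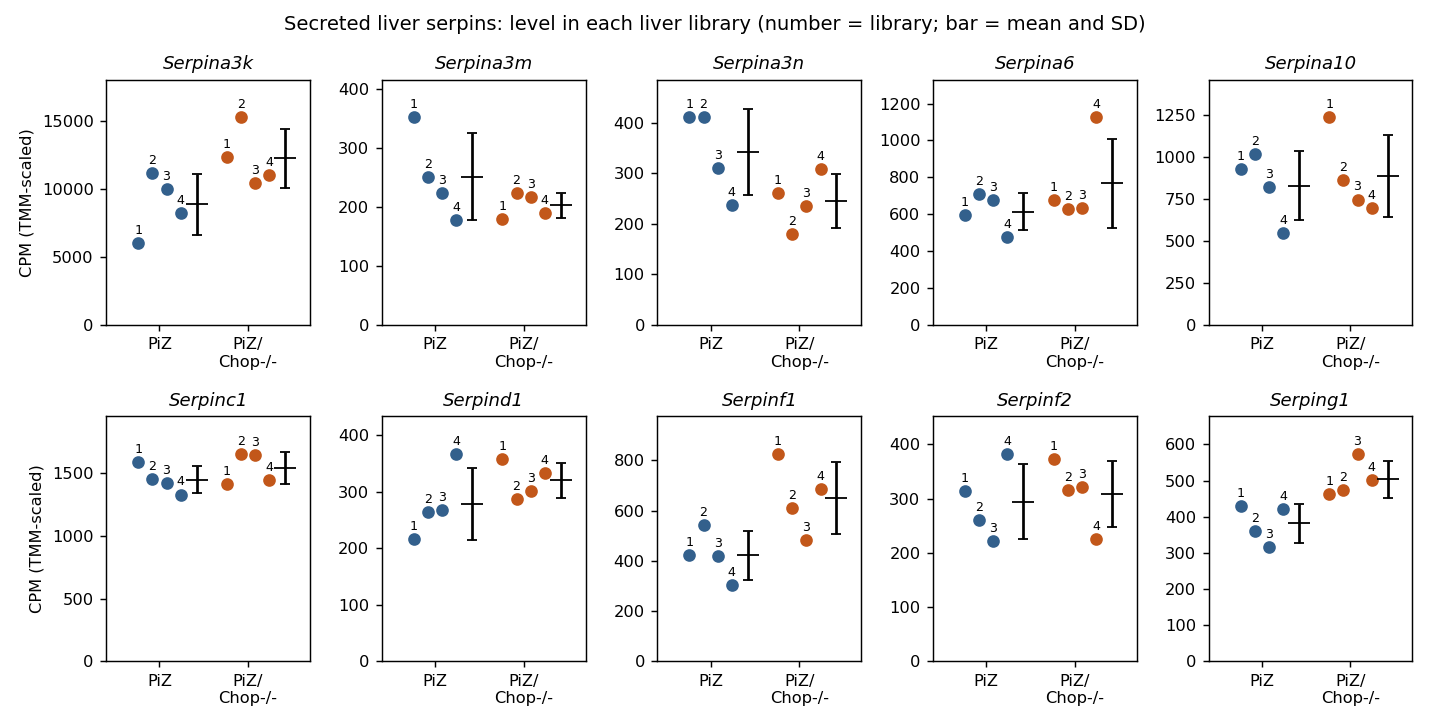
Level of each of the 10 serpins in CPM (y axes, each from 0) in the 4 PiZ and 4 PiZ/Chop-/- liver libraries; points are libraries with their number, and bars are the group mean and SD. Serping1 is the panel in which the groups do not overlap, and in Serpina3k PiZ library 1 (6036 CPM) lies below the other 7.

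Serpinc1, Serpind1 and Serpina10 restrain coagulation. Serpinc1 encodes antithrombin, the main plasma inhibitor of thrombin and factor Xa, which heparan sulfate activates. It stood at 1586, 1455, 1423 and 1330 CPM with PiZ alone and at 1417, 1655, 1649 and 1447 CPM without Chop. The groups overlapped across their range, and the coefficient of variation was 7.31% in PiZ and 8.27% in PiZ/Chop-/-, the lowest of the 10 serpins in both groups. This gave a log2 fold change of 0.090 (SE 0.18, 95% interval -0.29 to 0.47; edgeR adjusted p = 0.876), and 0.059 without PiZ/Chop-/- library 2 or 3.

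Serpind1, heparin cofactor II, inhibits thrombin among the coagulation proteases. Its level was 217, 265, 267 and 367 CPM with PiZ alone and 358, 288, 302 and 333 CPM without Chop. PiZ library 4 was the highest of all 8 and PiZ library 1 the lowest, so the PiZ range enclosed that of the other group. On the log2 scale the difference was 0.20 (SE 0.19; edgeR adjusted p = 0.706). Leaving out PiZ library 4 took it to 0.38 (adjusted p = 0.358), and leaving out PiZ library 1 took it to 0.098 (adjusted p = 0.885).

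Serpina10 encodes the protein Z-dependent protease inhibitor, which blocks factor Xa on membranes together with protein Z. It ran from 549 CPM in PiZ library 4 to 1018 CPM in PiZ library 2, and from 695 CPM in PiZ/Chop-/- library 4 to 1238 CPM in PiZ/Chop-/- library 1. The group means, 830 ± 204 and 886 ± 245 CPM (SD, n = 4 each), lay well within these spreads. The log2 fold change of 0.094 (SE 0.24; edgeR adjusted p = 0.907) became -0.11 when PiZ/Chop-/- library 1 was left out, and -0.044 when PiZ library 4 was.

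Serpinf2, alpha-2-antiplasmin, inhibits plasmin and so slows the breakdown of clots. It stood at 313, 260, 222 and 383 CPM with PiZ alone and at 373, 316, 322 and 226 CPM without Chop. Both groups spanned nearly the same range. The estimate was 0.071 (SE 0.21; edgeR adjusted p = 0.923), and it was -0.044 without PiZ library 3 and -0.033 without PiZ/Chop-/- library 1.

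Serping1 encodes C1 inhibitor, which stops C1r and C1s of complement and kallikrein and factor XII of the contact system. It had 431, 360, 316 and 422 CPM with PiZ alone and 463, 472, 574 and 502 CPM without Chop. All 4 PiZ/Chop-/- libraries were above all 4 PiZ libraries, with 431 and 463 CPM as the nearest values of the groups. The means were 382 ± 54.0 and 503 ± 50.1 CPM (SD, n = 4 each), a 1.32-fold difference. In the fit over all genes the log2 fold change was 0.40 (SE 0.18, 95% interval 0.014 to 0.78, adjusted p = 0.363), which did not pass.

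**Figure D2:**
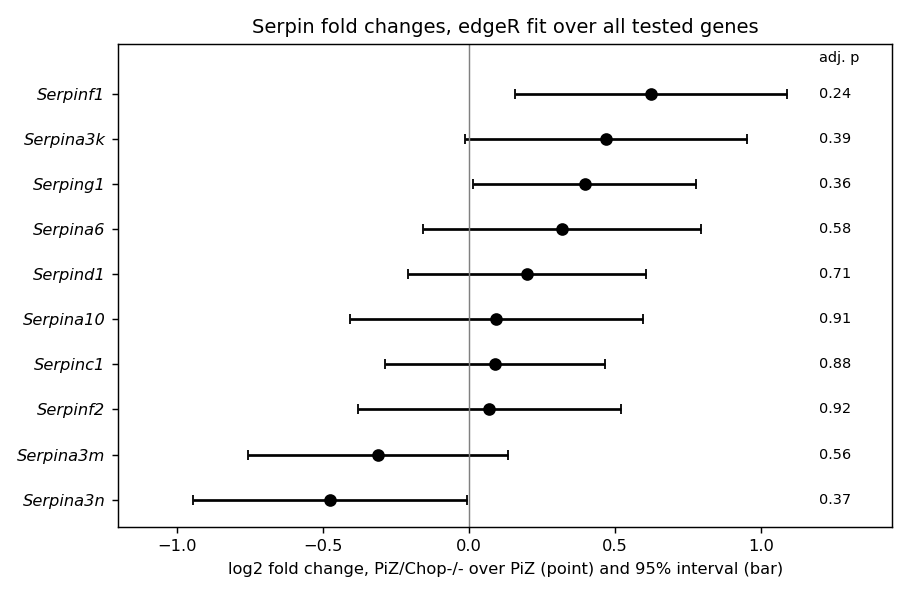
Log2 fold change of each serpin, PiZ/Chop-/- over PiZ (points), with its 95% interval (bars) and adjusted p from the edgeR fit over all tested genes. Intervals of Serpinf1, Serping1 and Serpina3n leave out 0, while the smallest adjusted p of the 10 is 0.239.

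Serpina3k, Serpina3m and Serpina3n belong to a group of mouse genes that stand in the place of human SERPINA3, alpha-1 antichymotrypsin. Serpina3k, a kallikrein-binding inhibitor, is an abundant liver transcript. Serpina3n is an acute-phase protein that inhibits granzyme B and leukocyte elastase. In the GENCODE annotation the span of Serpina3m takes in the whole of Serpina3k on the same strand. None of the 75-base windows in the last 400 bases of the coding transcripts of these 3 genes, or of the other 7, occurred in a transcript of another gene. The windows were compared by exact match, and the sources used here do not say how counting treated overlapping genes.

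Serpina3k stood at 6036, 11164, 9989 and 8220 CPM with PiZ alone and at 12319, 15286, 10433 and 11007 CPM without Chop. Only PiZ library 2 reached into the range of the PiZ/Chop-/- group, and PiZ library 1 was the lowest of all. Group means were 8852 ± 2234 (PiZ) and 12261 ± 2166 CPM (SD, n = 4 each). This gave a log2 fold change of 0.47 (SE 0.23, edgeR adjusted p = 0.390), which ran from 0.33 to 0.60 with single libraries left out. Without both PiZ libraries 1 and 4, which held its lowest levels, it was 0.21.

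Serpina3n pointed the other way. It had 411, 411, 310 and 236 CPM with PiZ alone and 260, 180, 234 and 309 CPM without Chop. PiZ libraries 1 and 2 lay above the whole PiZ/Chop-/- group, PiZ library 3 lay level with its highest value, and PiZ library 4 lay inside it. On the log2 scale the difference was -0.48 (SE 0.22, 95% interval -0.94 to -0.0067; edgeR adjusted p = 0.374). Serpina3m had 352, 251, 223 and 177 CPM with PiZ alone and 179, 224, 217 and 189 CPM without Chop, with coefficients of variation of 29.5% and 10.8%, a difference that was not tested. Its log2 fold change was -0.31 (SE 0.21; edgeR adjusted p = 0.562), and -0.10 without PiZ library 1, where it was highest.

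Within a library, the ratio of counts of 2 genes does not depend on how libraries were scaled. The ratio of Serpina3k to Serpina3n counts was 14.7, 27.1, 32.2 and 34.8 with PiZ alone and 47.3, 84.7, 44.5 and 35.6 without Chop. The highest PiZ value and the lowest PiZ/Chop-/- value were thus close to each other. The ratio of Serpina3k to Serpina3m ran from 17.1 to 46.3 in PiZ and from 48.0 to 68.9 in PiZ/Chop-/-, while that of Serpina3m to Serpina3n overlapped. Of the 45 pairs of the 10 serpins, 6 (13.3%) had ratios that did not overlap between groups, against 7.99% of all pairs of tested genes. Ratios of the serpins were taken from raw counts, and those of all pairs from scaled log2 CPM with a prior count of 2. The shares are thus not fully alike in measure. The pairs share genes, and no test was made. The other 4 were Serpina3n to Serpina6, and Serpina3m, Serpina3n and Serpina10 each to Serpinf1. The farthest apart was Serpina3n to Serpinf1, at 0.737 to 0.974 in PiZ and 0.297 to 0.486 in PiZ/Chop-/-.

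Serpina6 and Serpinf1 inhibit no protease. Serpina6 is corticosteroid-binding globulin, the plasma carrier of glucocorticoids. It stood at 593, 709, 676 and 478 CPM with PiZ alone and at 677, 628, 634 and 1126 CPM without Chop. PiZ/Chop-/- library 4 lay far above the other 7 libraries, which ran from 478 to 709 CPM. The estimate was 0.32 (SE 0.22; edgeR adjusted p = 0.579), and 0.078 without that library.

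Serpinf1 encodes pigment epithelium-derived factor, a secreted protein known to restrain blood vessel growth and to act on lipid metabolism in hepatocytes. It had 423, 542, 421 and 303 CPM with PiZ alone and 826, 609, 483 and 686 CPM without Chop. A total of 3 PiZ/Chop-/- libraries lay above every PiZ library, and PiZ/Chop-/- library 3 lay below PiZ library 2. The means of 422 ± 97.3 and 651 ± 144 CPM (SD, n = 4 each) gave a 1.54-fold difference, the highest ratio among the 10. This gave a log2 fold change of 0.62 (SE 0.22, 95% interval 0.16 to 1.09; edgeR adjusted p = 0.239), and it did not pass. Serpinf1 ranked at place 431 of the 8669 genes by p.

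Across the 10 serpins PiZ library 4 stood lowest most often. It held the lowest of the 8 levels for 5 of them, Serpina3m, Serpina6, Serpina10, Serpinc1 and Serpinf1, and the highest for Serpind1 and Serpinf2. Its median over the 10 genes, each centred on its mean over the libraries, was -0.29, and the medians of the other 7 libraries ran from -0.050 to 0.18.

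**Figure D3:**
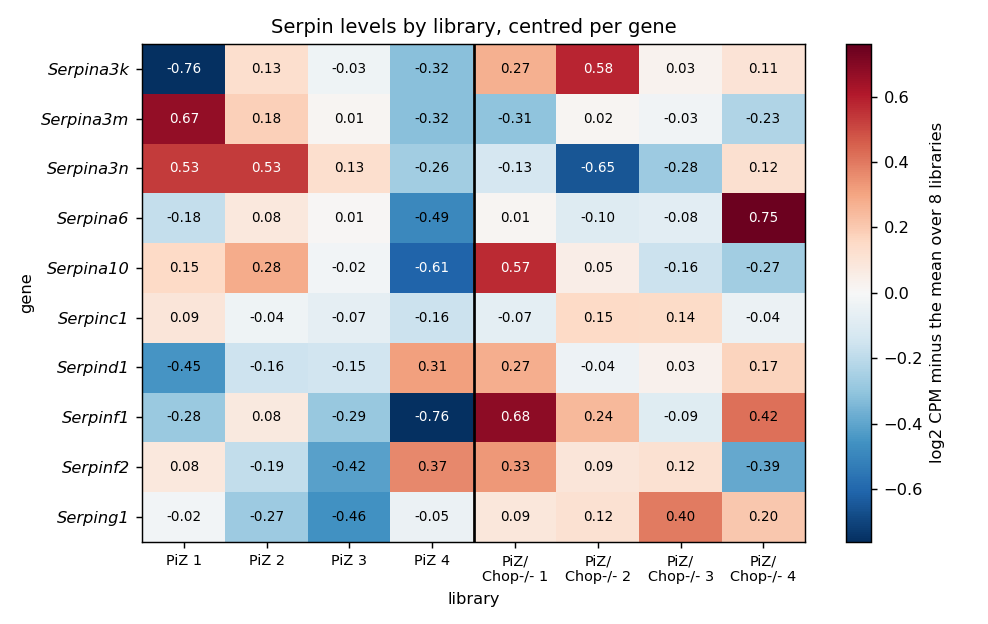
Log2 CPM of each serpin (rows) in each library (columns) minus the mean of that gene over the 8 libraries; the vertical line parts the PiZ from the PiZ/Chop-/- libraries. PiZ library 4 is below the mean for 8 of the 10 genes, with a median of -0.29, and above it for Serpinf2 (0.37) and Serpind1 (0.31).

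The promoters of 3 of these genes are printed to show the letters upstream of the serpin with the highest fold change (Serpinf1), the one with the lowest (Serpina3n) and the one that varied least (Serpinc1). They come from RefSeq on GRCm38.p6, 250 bases before to 50 after the gene's start, 5′ to 3′ on the gene's strand; the table matched 5 of the 10 serpins: Serpina3n, Serpinc1, Serpind1, Serpinf1 and Serpinf2. Capitals mark matches, on either strand, to TGATGNAAN (the composite element to which ATF4 binds with C/EBP factors or CHOP), TGCAAT (a CHOP and C/EBP sequence), TTGCNNAA (C/EBP), TTCNNNGAA (STAT) or the ER stress element. The Serpinf1 window is chr11:75422574-75422873 (minus strand), that of Serpina3n is chr12:104406458-104406757 (plus strand), and that of Serpinc1 is chr1:160978333-160978632 (plus strand).
Serpinf1: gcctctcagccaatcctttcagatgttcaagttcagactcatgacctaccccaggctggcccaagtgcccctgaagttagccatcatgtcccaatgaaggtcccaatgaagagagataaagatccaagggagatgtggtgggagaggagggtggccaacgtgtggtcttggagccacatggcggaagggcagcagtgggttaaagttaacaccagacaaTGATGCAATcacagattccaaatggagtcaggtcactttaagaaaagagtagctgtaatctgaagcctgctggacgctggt
Serpina3n: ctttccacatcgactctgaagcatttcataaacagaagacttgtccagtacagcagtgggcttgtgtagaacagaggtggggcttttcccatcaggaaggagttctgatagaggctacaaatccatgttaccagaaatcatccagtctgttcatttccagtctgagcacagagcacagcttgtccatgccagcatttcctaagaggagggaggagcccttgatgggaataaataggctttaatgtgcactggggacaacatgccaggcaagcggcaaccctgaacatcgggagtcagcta
Serpinc1: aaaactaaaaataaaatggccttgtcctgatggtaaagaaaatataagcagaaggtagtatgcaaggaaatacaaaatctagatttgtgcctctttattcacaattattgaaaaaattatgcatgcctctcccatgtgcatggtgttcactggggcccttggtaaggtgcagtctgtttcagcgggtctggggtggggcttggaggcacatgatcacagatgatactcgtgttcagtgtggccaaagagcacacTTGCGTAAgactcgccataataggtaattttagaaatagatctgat

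Serpinf1 was the 1 of the 5 promoters with a match to TGATGNAAN, which 3.95% of all 32851 promoters of this length hold. The match, TGATGCAAT, begins 31 bases before the start, and it contains the match to TGCAAT, which 8.40% of all promoters hold. Serpinc1 was the 1 of the 5 with TTGCNNAA, held by 10.8% of all promoters. TTCNNNGAA and the ER stress element (8.30% and 0.119% of all promoters) were not among the letters of the 5 windows. These matches are descriptions of sequence; binding was not measured.

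On chromosome 12 the Serpina genes form a cluster, and 5 of the 10 serpins lie in it (mm10, GENCODE M21). Serpina10 (103614786 to 103631444, minus strand) and Serpina6 (103646630 to 103657212, minus strand) stand at one end. Serpina3k (104338486 to 104346144), Serpina3m (104338486 to 104394257) and Serpina3n (104406729 to 104414329), all on the plus strand, stand at the other. Between them lie the Serpina1 paralogs, which summed to 9646 ± 3314 and 14834 ± 2266 CPM in the respective groups (SD, n = 4 each; PiZ first), with none of the 5 tested past the threshold. Serpina11, a related hepatocyte gene chosen after its values were seen, ran from 94.7 to 147 CPM in PiZ and from 155 to 278 CPM in PiZ/Chop-/-, with a log2 fold change of 0.82 (SE 0.22) and an adjusted p of 0.0906 by edgeR. It passed when low counts were not filtered (adjusted p = 0.00966, edgeR) and with DESeq2 (0.0380). Of the other Serpina3 genes only Serpina3g had enough counts to be tested (-0.59, SE 0.37; edgeR adjusted p = 0.537).

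**Figure D4:**
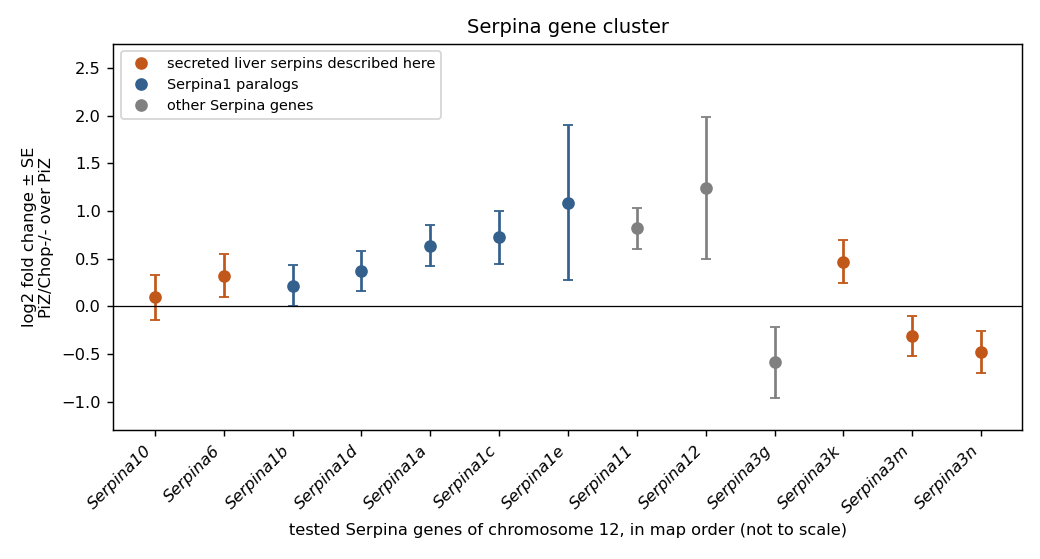
Log2 fold change with SE (y axis) of the tested Serpina genes of chromosome 12 in map order (x axis, not to scale); colours separate the serpins described here, the Serpina1 paralogs and the other genes. Values run from -0.59 (Serpina3g) to 1.24, and the Serpina3 genes lie on both sides of 0.

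The other 5 serpins are scattered. Serpinc1 lies on chromosome 1 (160978585 to 161005863, plus strand), Serpind1 on chromosome 16 (17331371 to 17343575, plus strand) and Serping1 on chromosome 2 (84765387 to 84775444, minus strand). Serpinf1 (75409769 to 75422701) and Serpinf2 (75431732 to 75439591) are neighbours on the minus strand of chromosome 11. Their levels did not run side by side: PiZ library 4 had the lowest Serpinf1 and the highest Serpinf2 level of all 8. Serpind1 overlaps Pi4ka and Serpinc1 overlaps Zbtb37, both on the opposite strand, and the strand setting of the counting is not stated. Serpinc1 also overlaps the gene model Gm37729 on the same strand.

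Summed, the 10 serpins took 1.11% to 1.60% of all counts in PiZ libraries and 1.55% to 1.93% in PiZ/Chop-/- libraries. Serpina3k alone made up 53.5% to 74.5% of that sum. On the scaled values the sum was 11292, 16436, 14672 and 12466 CPM with PiZ alone and 18109, 20523, 15594 and 16521 CPM without Chop, a ratio of group means of 1.29. Without Serpina3k the 9 others summed to 4246 to 5272 CPM in PiZ and to 5162 to 5790 CPM in PiZ/Chop-/-, groups that overlapped, with a ratio of means of 1.12. Without all 3 Serpina3 genes, which include both serpins with fold changes below 0, the 7 others summed to 4271 ± 351 and 4977 ± 279 CPM (SD, n = 4 each), a ratio of 1.17. These sums are descriptions and were not tested. Human SERPINA1, for comparison, stood at 1451 ± 374 and 620 ± 70.9 CPM (SD, n = 4 each; -1.23 on the log2 scale; edgeR adjusted p = 0.00873).

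The likeness of a gene to a serpin was measured as the root mean square difference of their log2 CPM over the 8 libraries, each gene centred. Among 7097 other genes, those nearest to Serpinf1 were Txndc15 and Pygl (0.094 and 0.12), those nearest to Serping1 were Sltm and Nfib (0.089 and 0.096), those nearest to Serpina3k were Pex6 and Mark3 (0.084 and 0.089), and those nearest to Serpina3n were Rnf135 and Pwp2 (both 0.14). The median difference to all those genes was between 0.43 and 0.54 for these 4 serpins. No serpin was among the 2 nearest genes of another, and the closest pair among the 10 was Serpinc1 and Serping1 (0.22). The measure is not scaled by spread, so a gene that varies little lies near many others. Serpinc1 varied least, and its median difference to all those genes was 0.36, the lowest of the 10.

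The proteases that these serpins act on had no member past the threshold. Of 23 listed target proteases (among them thrombin F2, F9, F10, plasminogen Plg, Klkb1 and the C1r and C1s genes) 14 were tested, 13 had fold changes above 0, and their median was 0.27 against -0.0016 over all tested genes. Beside this and each list below, 49.8% of all tested genes were above 0, 50.2% were below 0 and 1.03% passed. Klkb1, plasma prekallikrein, stood at 228 ± 42.7 and 348 ± 55.7 CPM (SD, n = 4 each; 0.61 on the log2 scale, SE 0.19; edgeR adjusted p = 0.188), and C1ra, a complement protease that C1 inhibitor blocks, at 116 ± 22.7 and 173 ± 16.9 CPM (0.58, SE 0.19, adjusted p = 0.190). In both genes all 4 PiZ/Chop-/- libraries were above all 4 PiZ libraries, but both were named for their low p. The groups lay apart in 4 of the 14 tested target proteases, against 7.88% of all tested genes (3.66% higher and 4.22% lower). Of 16 cofactors and substrates of these cascades, all tested, none passed, 10 were above 0 and the median was 0.15 (0.088 without PiZ/Chop-/- library 3), with Vtn (vitronectin) at 0.36 (adjusted p = 0.463, edgeR) and Hrg (histidine-rich glycoprotein) at 0.39 (adjusted p = 0.537).

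Of 25 genes of heparan sulfate synthesis and of receptors that clear plasma proteins, 22 were tested, none passed and 15 were above 0 (median 0.24). Lrp1, an endocytic receptor that takes up complexes of serpins with proteases, ran from 107 to 142 CPM in PiZ and from 160 to 243 CPM in PiZ/Chop-/- (log2 fold change 0.78, SE 0.19; edgeR adjusted p = 0.0670). It passed without PiZ/Chop-/- library 2 (adjusted p = 0.0347), with DESeq2 (0.00916) and with no filter on low counts (0.0160). In no other fit did it pass, and its adjusted p ran up to 0.209 (edgeR, without PiZ/Chop-/- library 3). Ndst1, a sulfotransferase, had 0.57 (adjusted p = 0.315, edgeR).

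Among acute-phase and IL-6 response genes, the class to which Serpina3n belongs, 2 of 26 tested genes fell, none rose, and 21 were below 0 (median -0.27, and -0.14 without PiZ library 1). Over all tested genes 0.692% passed as lower, 0.335% passed as higher and 50.2% were below 0. No test of the list as a whole was made. Apcs, serum amyloid P, fell from 326 ± 122 CPM to 107 ± 16.6 (SD, n = 4 each; -1.61 on the log2 scale, SE 0.25; edgeR adjusted p = 0.00327). Lcn2, lipocalin, fell from 90.3 ± 41.4 CPM to 18.0 ± 8.13 (-2.30, SE 0.38, adjusted p = 0.0113). Leaving out PiZ/Chop-/- library 1 or 3 took it to an adjusted p of 0.0688 or 0.0626. Of 27 other plasma proteins tested, C9 rose, none fell and 21 were above 0 (median 0.22). C9, the complement component that forms the pore of the attack complex, went from 96.8 ± 32.6 to 288 ± 75.4 CPM (1.57, SE 0.27, adjusted p = 0.00700). With DESeq2 or no filter on low counts, C8g and Mug1 passed too, as higher.

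A pair of further lists was read beside Serpina6 and the liver promoters. Of 14 tested genes of glucocorticoid response and hormone carriage none passed and 10 were above 0 (median 0.10, running from 0.015 without PiZ/Chop-/- library 3 to 0.28 without PiZ/Chop-/- library 4), with Hsd11b1, which makes active glucocorticoid, at 0.51 (adjusted p = 0.341, edgeR) and Pck1 at 0.48 (adjusted p = 0.365). Of 20 tested hepatocyte transcription factors none passed and 14 were above 0 (median 0.18, running from 0.11 without PiZ/Chop-/- library 3 to 0.29 without PiZ library 2), with Onecut1 at 2.23 (adjusted p = 0.185, edgeR) and Xbp1, a factor of the unfolded protein response, at 0.63 (adjusted p = 0.189). Onecut1 passed without PiZ library 2 (3.19, adjusted p = 4.79e-05), the PiZ library with its highest level (over all alternatives its adjusted p ran up to 0.424), in the edgeR fit that was not robust (adjusted p = 0.0446) and with DESeq2 (0.0339).

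Of the 52 serpin genes that are neither among the 10 nor Serpina1 paralogs, 7 had enough counts for the test. Of these 1 fell and none rose, against 0.692% and 0.335% of all tested genes. Serpinb6a, an intracellular inhibitor, fell from 49.1 ± 7.95 CPM to 12.5 ± 6.58 (SD, n = 4 each; -1.96 on the log2 scale, SE 0.32; edgeR adjusted p = 0.00509) and passed in each fit with a library left out.

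**Figure D5:**
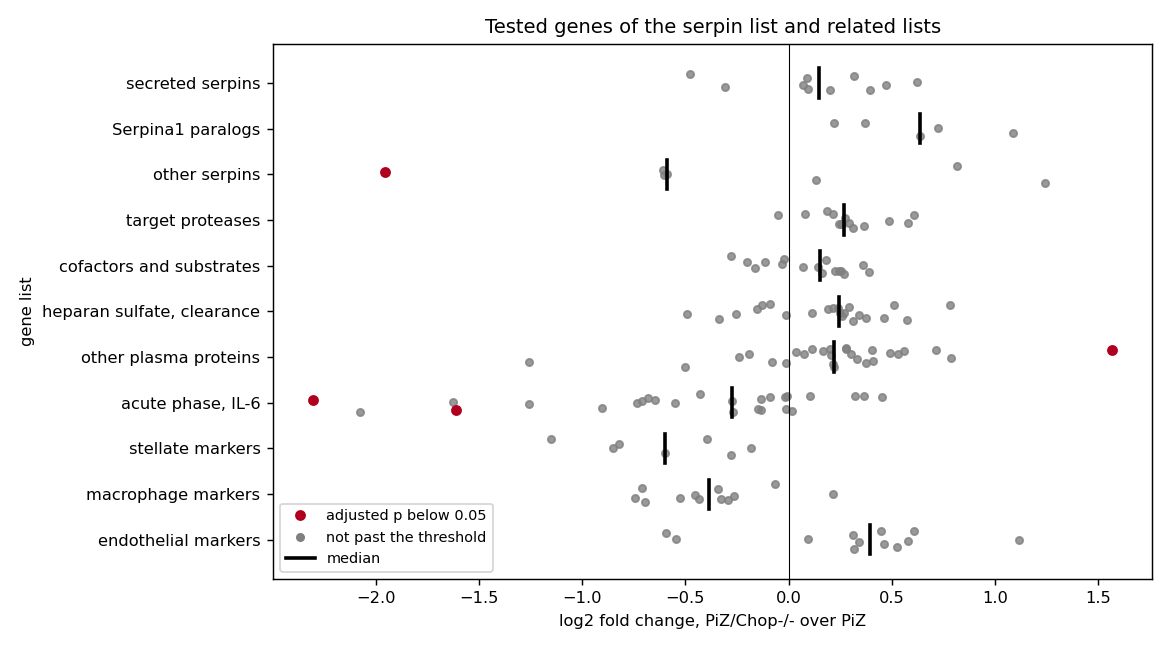
Log2 fold change (x axis) of each tested gene, by list (y axis); red points passed the threshold, grey points did not, and black lines are list medians. The 10 secreted serpins hold no red point, while Lcn2, Apcs, C9 and Serpinb6a are red.

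Serpinf1, Serping1 and Serpina3n are known to be made by stellate cells, fibroblasts or macrophages as well as by hepatocytes. The 12 stellate cell and fibroblast markers summed to 359 to 441 CPM in PiZ and 205 to 361 CPM in PiZ/Chop-/-; 7 were tested and all 7 were below 0. The 12 Kupffer cell and macrophage markers summed to 1054 to 1536 CPM in PiZ and 809 to 972 CPM in PiZ/Chop-/-, with 11 of 12 below 0. The 12 endothelial markers summed to 370 to 409 CPM in PiZ and 487 to 532 CPM in PiZ/Chop-/-, with 10 of 12 above 0. No gene of these 3 lists passed with edgeR on all 8 libraries after the filter on low counts. Col1a1, a fibroblast collagen, passed with DESeq2 (-1.15, adjusted p = 0.0294) and without PiZ library 4 (-1.26, adjusted p = 0.0345, edgeR), and Lyve1, an endothelial receptor, without PiZ libraries 1 and 4 (-1.14, adjusted p = 0.0422, edgeR). None of their defining markers was at 0 in all libraries. Fewer cells of a type and less RNA per cell cannot be told apart in bulk liver, and the part of these cells in the serpin levels was not tested. Lymphocyte, neutrophil and mesothelial markers summed to at most 15.2, 86.8 and 24.0 CPM in any library, and red cell markers to between 341 and 1456 CPM.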

How the data were processed

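The authors deposited raw counts per gene, 1 file per library, per the file headers; the values are whole numbers and are not normalized. Libraries were made with the QuantSeq 3' mRNA kit and read from one end over 75 bases, per the labels' protocols. Per the submitters' processing notes, the tools were STAR and HTSeq (versions not stated) and the build was mm10. The sources used here do not give the annotation, the strand setting or the treatment of multiply mapped reads and PCR copies. Symbols and positions came from GENCODE M21 (52403 of 52550 mouse IDs found).

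Groups and replicate numbers came from the titles. The test was glmQLFTest after a robust glmQLFit with TMM and no covariate (edgeR 4.0.16, R 4.3.3), on the 8669 genes that filterByExpr left at a minimum count of 10, with Benjamini-Hochberg adjustment over all of them and a threshold of 0.05. The SE is the log2 fold change over the square root of F, and 95% intervals use the total degrees of freedom of the fit. log2 CPM had a prior count of 2. The fit was tested on simulated data. Alternatives were other scalings, filters and fits, DESeq2 1.42.0, limma-voom (limma 3.58.1), a replicate block, and each library left out; leaving out PiZ libraries 1 and 4 together, and the scaling, filter and test alternatives of the list counts, were added after seeing the data.

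The 10 serpins, the gene lists and the markers were chosen with earlier results of these data known; motifs and count ratios were chosen after the values were seen. The genes named beside the 10 are, in each list, those past the threshold, up to 4 by lowest p, or else the 2 of lowest p, and the tested Serpina1 and Serpina3 genes. Serpina11 and the genes named only for passing under an alternative were chosen after their values were seen.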

Additional observations from a re-analysis of the deposited data

Results flagged for a closer look

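Among 94 groups of 4 libraries (in each genotype, the 10 serpins, their sums, Ddit3, SERPINA1, and the genes of the lists that were named by the rule or passed in any fit), 6 held a library set far apart from the other 3 by Dixon's test at the 95% level (its gap to the nearest library against the whole range). Chance flags about 1 in 20 groups that were not chosen by their values. Here some genes entered only because they passed with a library left out, as Igfbp1 and Atf4 did without PiZ/Chop-/- library 2. The count of 6 can therefore not be set against that share. Serpina6 was at 1126 CPM in PiZ/Chop-/- library 4, against 628 to 677 CPM in the other libraries of that group. Hsd11b1 was at 229.7 CPM in PiZ library 4, against 124 to 132 CPM. Serpina1c was at 4796 CPM in PiZ library 4, against 1918 to 2252 CPM. Onecut1 was at 73.4 CPM in PiZ library 2, against 10.4 to 20.9 CPM. Igfbp1 was at 1840 CPM in PiZ/Chop-/- library 2, against 211 to 421 CPM in the other 3 of that group. Atf4 was at 579 CPM in the same library, against 134 to 197 CPM.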

How the results depend on the processing

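No serpin of the 10 passed in any of the fits run (0 of 10 throughout), with adjusted p of at least 0.0863 (Serpinf1, no filter on low counts). Fold changes kept their sign in all fits for 8 of the 10. Those of Serpinf2 and Serpina10 turned, to -0.023 for Serpinf2 with library size only and to -0.054 for Serpina10 without PiZ libraries 1 and 4; with single libraries left out they ran from -0.044 to 0.24 and from -0.11 to 0.21. The number of genes called over all tested, 89, was 39 at an adjusted p below 0.01, 357 with no filter on low counts, 209 with DESeq2 and 46 to 169 with single libraries left out (53 without PiZ library 3; 49, 169, 46 and 51 without PiZ/Chop-/- library 1, 2, 3 and 4). The cause was not tested.

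Among the gene lists, acute-phase genes had 2 calls, 1 at an adjusted p below 0.01, 1 to 2 with single libraries left out and 3 with the replicate block (Mt2 added). With no filter on low counts the calls were 3 for other plasma proteins, 2 for other serpins (Serpinb6a, Serpina11) and 1 each for clearance genes (Lrp1), glucocorticoid genes (Fkbp5), Serpina1 paralogs (Serpina1c), stellate (Col1a1), macrophage (Cd5l) and red cell (Alas2) markers. With DESeq2 they were 3 for other plasma proteins, 2 for other serpins and 1 each for clearance genes, hepatocyte factors (Onecut1) and stellate markers, and hepatocyte factors also had 1 in the edgeR fit that was not robust. With single libraries left out, counts ran from 0 to 1 for hepatocyte factors (Onecut1 without PiZ library 2, Atf4 without PiZ/Chop-/- library 2), glucocorticoid genes (Hsd11b1 without PiZ library 4, Igfbp1 without PiZ/Chop-/- library 2), clearance genes (Lrp1 without PiZ/Chop-/- library 2), stellate markers and Serpina1 paralogs (Col1a1 and Serpina1c without PiZ library 4). Without PiZ libraries 1 and 4, 1 endothelial marker (Lyve1, lower) and 1 Serpina1 paralog (Serpina1c) passed.

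No pairing by replicate number was seen: deviations of same-numbered libraries correlated between -0.051 and 0.049 across genes. The same number was the best match only for PiZ library 1 and for PiZ/Chop-/- library 4. This check cannot establish that the libraries were unpaired. With a replicate block 76 genes and none (0) of the 10 serpins were called.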
